A study of Mus musculus with 8 samples.

Results

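The lysosomal enzymes and membrane proteins described here were the 37 genes of a fixed list whose names appeared in the gene name column of the array files: 11 proteases, 9 glycosidases, 4 sulfatases, 7 proteins of lipid breakdown and cholesterol export, and 6 membrane proteins and others. The arrays carried 69 probes for them out of 41174, and 37 genes out of 27398 gene names. The RNA came from dendritic cells (DC) that grew out of the bone marrow of male C57BL/6Jax mice over 7 days in medium with GM-CSF (40 ng/mL), a growth factor, and was hybridised in 1 colour to 8 Agilent arrays, 2 for each of 4 groups. The KO LPS group lacked the microRNA miR-155 and the WT LPS group did not, and both received 100 ng/mL of lipopolysaccharide (LPS, a component of bacterial cell walls) for 16 h and were sorted as adherent CD86+ DC. The KO unstimulated and WT unstimulated groups came from the same kind of culture without LPS and were sorted as CD86- DC. An LPS difference is thus also a difference between these sort gates. It is partly a difference between slides as well, since slide 2 carried most of the LPS arrays and slide 1 most of the unstimulated ones. Genotype was unevenly spread in the same way, with KO mostly on slide 2 and WT mostly on slide 1. The labels do not say how the miR-155 deletion was made, nor whether the 2 replicates of a group came from separate animals or cultures, so the p-values measure the spread between these arrays, which may be technical. No probe carried the name Mir155, so the arrays do not check the deletion. The mature microRNA that the KO cells lack, from RefSeq (GRCm38.p6, chr16:84714143-84714165, plus strand), is shown with its seed (bases 2 to 8) in capitals.
miR-155-5p: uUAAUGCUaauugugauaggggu

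Lysosomes are acidic organelles in which soluble hydrolases take apart proteins, glycans and lipids, while membrane proteins keep the lumen acidic and carry the products out. In DC the same compartment cuts antigens into peptides for MHC class II molecules, and cathepsins remove the invariant chain that blocks the peptide groove. Activation of DC by LPS is known to change how fast this compartment acidifies and degrades its content. Many lysosomal genes have an E-box of the sequence CACGTG near their transcript start, which the transcription factor TFEB and its relatives bind.

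All values are scaled log2 signals: the log2 of the spot's processed signal minus the array's 75th percentile. A difference of 1 on this scale is therefore a change of 2-fold, and levels are compared between arrays for the same gene, never between genes. Where a gene had several probes, the one with the highest mean signal was used. All 37 genes passed the filter and were well above background on all 8 arrays, and 64 of their 69 probes passed it. A gene is called changed, or said to have risen or fallen, at an adjusted p under 0.05 by limma. Of all spots on an array, 50.8% to 58.3% were well above background and 0 were saturated. The number of arrays limits the precision: for a single genotype or state the 95% interval of a difference reached between 0.559 and 1.61 to either side, with a median of 0.854 over the 37 genes.

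The promoters of 32 of the 37 genes matched a RefSeq window of 250 bases before to 50 bases after the transcript start (GRCm38.p6). The E-box CACGTG, which reads the same on both strands, stood in the windows of 8 of these 32 genes, 25%, against 8.91% of 17491 protein-coding genes. The longer forms GTCACGTG, searched on both strands, and TCACGTGA both contain CACGTG. GTCACGTG was found in 6 of the 32 genes, 18.75%, against 3.19% of coding genes, and TCACGTGA in 4 genes, 12.5%, against 1.41%. A match describes these letters and not a bound site. The 6 genes with a longer form are printed here, 1 E-box each with its surroundings and CACGTG in capitals, because they differ in how they responded to LPS: Ctsa and Sgsh fell, whereas Ctsd, Gla, Lamp1 and Mcoln1 were not called. The first base of the E-box lay at -12 from the transcript start in Ctsa, at -29 in Sgsh, at -98 in Ctsd, at -194 in Gla, at -28 in Lamp1 and at -45 in Mcoln1.
Ctsa (chr2:164833749-164833772, plus strand): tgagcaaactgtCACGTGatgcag
Sgsh (chr11:119355522-119355551, minus strand): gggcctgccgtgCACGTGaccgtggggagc
Ctsd (chr7:142387908-142387937, minus strand): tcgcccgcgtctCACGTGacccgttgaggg
Gla (chrX:134601182-134601211, minus strand): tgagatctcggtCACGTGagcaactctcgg
Lamp1 (chr8:13159121-13159150, plus strand): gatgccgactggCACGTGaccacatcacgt
Mcoln1 (chr8:3500462-3500491, plus strand): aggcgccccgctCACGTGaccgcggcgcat
The other 2 genes with CACGTG were Ctsl and Gaa.

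The first question was how the lysosomal genes differed between activated and resting DC. Averaged over genotypes, 4 LPS arrays against 4 unstimulated arrays, 16 of the 37 genes fell and 2 rose, while 19 were not called. Of all 15401 genes tested, 19% were called lower and 18.4% higher in this comparison. The median difference of the 37 genes was -0.78, against 0.03 over all genes. Below 0 were 30 of the 37 differences, and 7464 of those of all 15401 genes. Values of the 4 LPS arrays lay wholly below those of the 4 unstimulated arrays in 18 of the 37 genes and wholly above them in 2, against 22.5% and 21.5% of all genes. In a bulk sample, fewer cells of a type and less RNA per cell cannot be told apart. With the slide as a block, 10 of the 37 genes were called lower and 2 higher, the calls of Hexa, Fuca1, Arsb, Sgsh, Npc1 and Cd68 being lost (adjusted p = 0.0522 to 0.148).

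**Figure D1:**
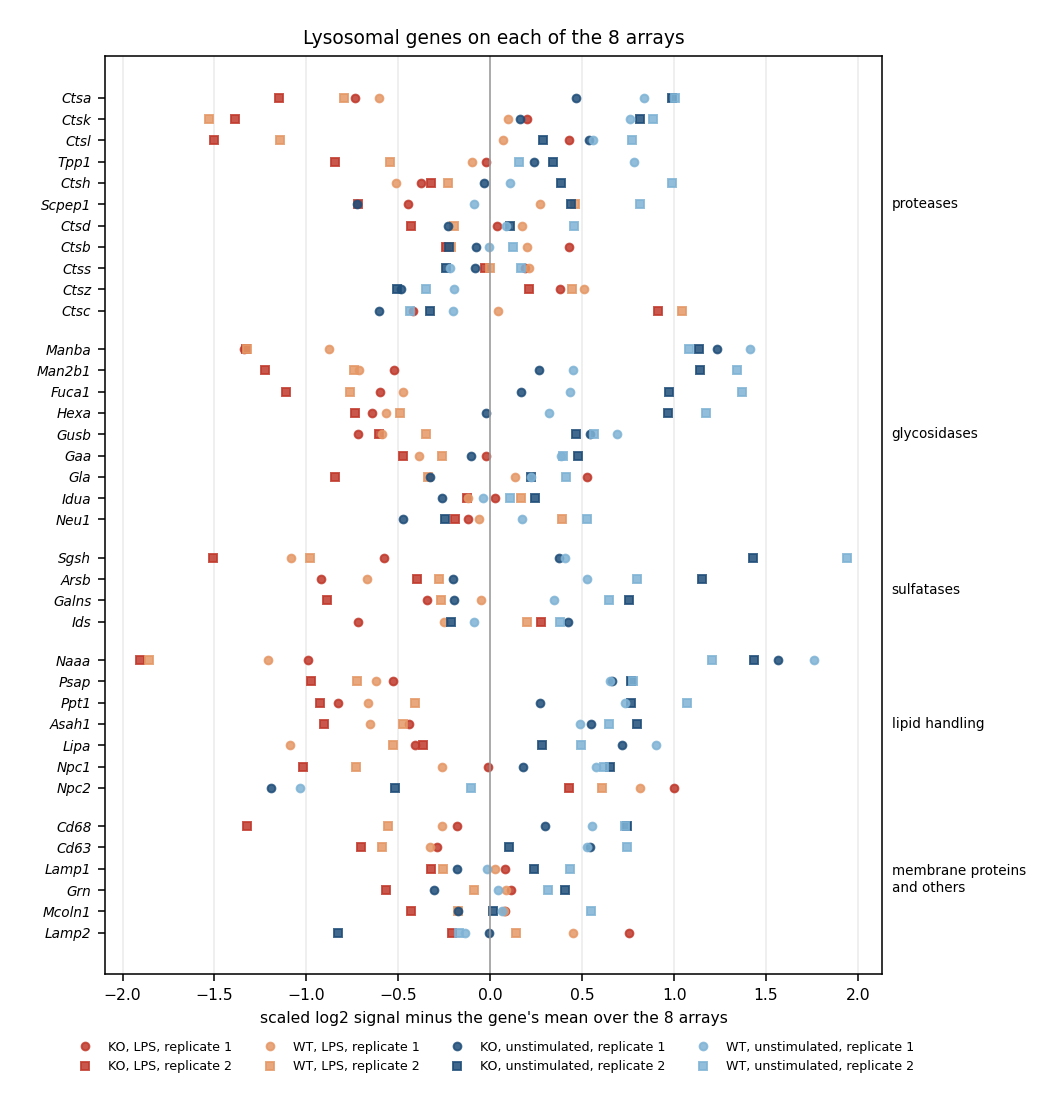
Scaled log2 signal of each of the 37 genes on each of the 8 arrays, minus the gene's own mean over the arrays, with genes grouped by role. Colours mark the 4 groups, circles replicate 1 and squares replicate 2. For Naaa, Manba and Psap all 4 LPS arrays lie far left of all 4 unstimulated arrays, whereas for Npc2 and Ctsz they lie to the right.

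Each genotype on its own gave fewer calls. In KO cells 8 genes fell (Ctsa, Man2b1, Manba, Gusb, Naaa, Asah1, Ppt1 and Psap), 1 rose (Npc2) and 28 were not called, against 10.5% of all genes called lower and 10.4% called higher. In WT cells 11 genes fell, 0 rose and 26 were not called, against 10.7% and 9.48% of all genes. The 11 were the same 8 as in KO cells with Sgsh, Lipa and Cd63 added. The medians of the 37 differences were -0.82 in KO cells and -0.92 in WT cells, against 0.05 and 0.00 over all genes. These per-genotype counts rest on 2 arrays a group. The KO count of genes called lower was 2 without KO LPS replicate 2 or without KO unstimulated replicate 2, and the single KO rise, of Npc2, was lost without any 1 of 6 arrays. The WT count was 2 without WT LPS replicate 1, 3 without WT LPS replicate 2, 4 without WT unstimulated replicate 2, and 7 without WT unstimulated replicate 1 or KO LPS replicate 1. With the slide as a block, 7 genes were called lower in KO cells and 6 in WT cells. Within slide 2, which held 2 KO LPS arrays and 1 KO unstimulated array, 0 genes were called, and within slide 1, with 1 WT LPS and 2 WT unstimulated arrays, 3 were called lower in WT cells.

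**Figure D2:**
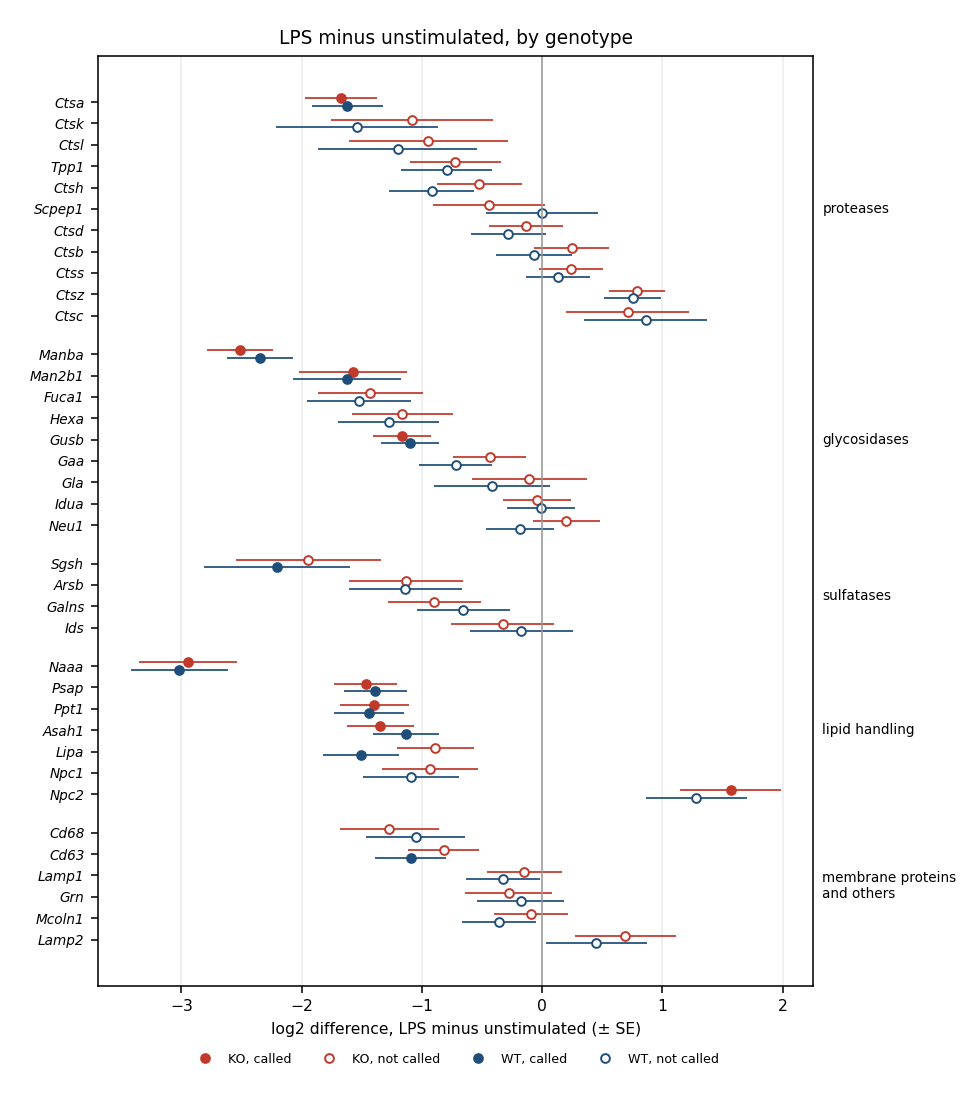
Difference in log2 signal, LPS minus unstimulated, of the 37 genes in KO cells (red) and WT cells (blue), with SE bars and 2 arrays a group; filled circles mark an adjusted p under 0.05 by limma. The filled circles lie left of 0 except for Npc2 in KO cells, with Naaa at -2.95 in KO cells and -3.02 in WT cells.

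Among the lipid-handling proteins, 6 of 7 fell and 1 rose, with a median difference of -1.24. Naaa, the acid amidase that hydrolyses N-acylethanolamines such as palmitoylethanolamide, had the widest separation between the states. Naaa had signals of 4.88 and 3.97 on the KO LPS arrays and 4.67 and 4.02 on the WT LPS arrays, against 7.44 and 7.31 on the KO unstimulated arrays and 7.64 and 7.08 on the WT unstimulated arrays. The 2 states were far apart, and the averaged difference was -2.98 ± 0.29 (SE, adjusted p = 0.000445), a signal 7.90-fold lower after LPS. Psap encodes the precursor of the saposins, small proteins that present sphingolipids to their hydrolases. The signals of Psap were 7.03 and 6.58 on the KO LPS arrays and 6.94 and 6.83 on the WT LPS arrays, against 8.22 and 8.32 on the KO unstimulated arrays and 8.21 and 8.33 on the WT unstimulated arrays. The ranges did not overlap, and Psap fell by 1.43 ± 0.19 on the log2 scale (adjusted p = 0.00149). Ppt1 removes fatty acids from proteins. Ppt1 measured 1.49 and 1.39 on the KO LPS arrays and 1.66 and 1.91 on the WT LPS arrays, against 2.59 and 3.09 on the KO unstimulated arrays and 3.05 and 3.39 on the WT unstimulated arrays. It fell by 1.42 ± 0.20 (adjusted p = 0.00221), and every LPS array lay below every unstimulated array.

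Asah1, acid ceramidase, separated the states as well. For Asah1 the arrays gave 2.33 and 1.87 on the KO LPS arrays and 2.12 and 2.30 on the WT LPS arrays, against 3.32 and 3.57 on the KO unstimulated arrays and 3.26 and 3.42 on the WT unstimulated arrays. It fell by 1.24 ± 0.19 (adjusted p = 0.00316). Lipa, the acid lipase that frees cholesterol and fatty acids from esters, behaved likewise when the genotypes were averaged. Lipa had signals of 3.65 and 3.70 on the KO LPS arrays and 2.97 and 3.53 on the WT LPS arrays, against 4.78 and 4.35 on the KO unstimulated arrays and 4.96 and 4.55 on the WT unstimulated arrays. It fell by 1.20 ± 0.22 (adjusted p = 0.00634), with -0.89 ± 0.32 in KO cells (adjusted p = 0.0955) and -1.51 in WT cells (adjusted p = 0.0184). The difference between these 2 responses was 0.62 ± 0.45 and its 95% interval, -0.44 to 1.68, included 0. A second Lipa probe, of a cDNA clone record, gave an averaged difference of -0.56 ± 0.22, not called (adjusted p = 0.0885 over all probes). There the response was -0.59 in KO cells and -0.54 in WT cells, a difference of -0.05 ± 0.44. Averaged over states, KO minus WT was 0.72 ± 0.22 at that probe and was not called.

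The 2 Niemann-Pick genes, whose products hand cholesterol to each other on its way out of the lysosome, went opposite ways. Npc1 is the membrane protein of the pair. The signals of Npc1 were 1.61 and 0.60 on the KO LPS arrays and 1.36 and 0.89 on the WT LPS arrays, against 1.80 and 2.27 on the KO unstimulated arrays and 2.20 and 2.24 on the WT unstimulated arrays. It fell by 1.01 ± 0.28 (adjusted p = 0.029), and the closest arrays of the 2 states were KO LPS replicate 1 and KO unstimulated replicate 1. The call of Npc1 was lost without any 1 of 5 arrays (both WT unstimulated arrays, and replicate 2 of the KO LPS, WT LPS and KO unstimulated groups), with adjusted p up to 0.0946. Npc2 is the soluble cholesterol carrier. Npc2 measured 7.70 and 7.13 on the KO LPS arrays and 7.52 and 7.31 on the WT LPS arrays, against 5.51 and 6.18 on the KO unstimulated arrays and 5.67 and 6.60 on the WT unstimulated arrays. It rose by 1.42 ± 0.30 (adjusted p = 0.00969, 2.68-fold), every LPS array lying above every unstimulated array, although the unstimulated arrays of replicate number 2 lay nearer to them than those of replicate number 1 in both genotypes.

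Of the 9 glycosidases, which trim sugars from glycoproteins, glycolipids and glycosaminoglycans, 5 fell and 0 rose, with a median of -1.13. Manba cleaves beta-linked mannose. For Manba the arrays gave 0.61 and 0.63 on the KO LPS arrays and 1.08 and 0.63 on the WT LPS arrays, against 3.18 and 3.09 on the KO unstimulated arrays and 3.37 and 3.03 on the WT unstimulated arrays. The 4 LPS values sat well below the 4 unstimulated values, and Manba fell by 2.43 ± 0.19 (adjusted p = 0.000212, 5.40-fold). Man2b1 cleaves alpha-linked mannose. Man2b1 had signals of 5.12 and 4.42 on the KO LPS arrays and 4.93 and 4.90 on the WT LPS arrays, against 5.91 and 6.78 on the KO unstimulated arrays and 6.09 and 6.98 on the WT unstimulated arrays. It fell by 1.60 ± 0.32 (adjusted p = 0.00805).

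Gusb, beta-glucuronidase, is often used as a reference gene for expression measurements. The signals of Gusb were 4.14 and 4.25 on the KO LPS arrays and 4.27 and 4.51 on the WT LPS arrays, against 5.40 and 5.33 on the KO unstimulated arrays and 5.55 and 5.42 on the WT unstimulated arrays. Its groups were tight and did not overlap between states, and it fell by 1.13 ± 0.17 (adjusted p = 0.00267). Fuca1 removes fucose. Fuca1 measured 3.54 and 3.02 on the KO LPS arrays and 3.66 and 3.37 on the WT LPS arrays, against 4.31 and 5.11 on the KO unstimulated arrays and 4.57 and 5.51 on the WT unstimulated arrays. It fell by 1.47 ± 0.31 (adjusted p = 0.00979), while neither genotype alone passed the test (adjusted p = 0.0599 in KO cells and 0.0502 in WT cells). Hexa encodes the alpha subunit of beta-hexosaminidase, which degrades the ganglioside GM2. For Hexa the arrays gave 4.98 and 4.89 on the KO LPS arrays and 5.06 and 5.13 on the WT LPS arrays, against 5.60 and 6.59 on the KO unstimulated arrays and 5.94 and 6.80 on the WT unstimulated arrays. It fell by 1.22 ± 0.30 (adjusted p = 0.0182), a call lost without KO LPS replicate 2, WT LPS replicate 1 or KO unstimulated replicate 2 (adjusted p = 0.0511 to 0.0558). In Man2b1, Fuca1 and Hexa the 2 unstimulated arrays of replicate number 2 were higher than those of replicate number 1 in both genotypes.

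The other 4 glycosidases were not called. Gaa, which degrades glycogen, had a difference of -0.58 ± 0.21 (adjusted p = 0.0743). Gla, alpha-galactosidase A, had -0.26 ± 0.34, Idua, alpha-iduronidase, had -0.02 ± 0.20, and Neu1, the lysosomal sialidase, had 0.01 ± 0.20. Neu1 forms a complex with Ctsa, the protective carboxypeptidase that stabilises it. The signals of Neu1 were 5.27 and 5.20 on the KO LPS arrays and 5.33 and 5.78 on the WT LPS arrays, against 4.92 and 5.15 on the KO unstimulated arrays and 5.56 and 5.92 on the WT unstimulated arrays, so its states overlapped.

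Of the 4 sulfatases 2 fell and 0 rose, with a median of -0.96. Sgsh, which removes sulfate from heparan sulfate, varied strongly among the unstimulated arrays. Sgsh had signals of -0.52 and -1.45 on the KO LPS arrays and -1.03 and -0.92 on the WT LPS arrays, against 0.43 and 1.49 on the KO unstimulated arrays and 0.46 and 2.0 on the WT unstimulated arrays. The states did not overlap and Sgsh fell by 2.08 ± 0.43 (adjusted p = 0.00953). Arsb acts on dermatan sulfate. The signals of Arsb were -2.75 and -2.23 on the KO LPS arrays and -2.50 and -2.11 on the WT LPS arrays, against -2.04 and -0.68 on the KO unstimulated arrays and -1.31 and -1.03 on the WT unstimulated arrays. It fell by 1.14 ± 0.33 (adjusted p = 0.0351), with a narrow gap between the lowest unstimulated and the highest LPS array. Its call was lost without any 1 of 7 arrays, all but KO unstimulated replicate 1 (adjusted p up to 0.107), and with the slide as a block the difference was -0.70 (adjusted p = 0.148). Galns, which acts on keratan sulfate, had -0.78 ± 0.27 (adjusted p = 0.0624), and Ids, iduronate sulfatase, had -0.25 ± 0.30 (adjusted p = 0.548).

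The proteases had a smaller share of calls than the other role groups, a difference that was not tested. Of 11, 1 fell (Ctsa), 1 rose (Ctsz) and 9 were not called, with a median of -0.22. Ctsa is the serine carboxypeptidase that protects Neu1 and beta-galactosidase. Ctsa measured 4.86 and 4.44 on the KO LPS arrays and 4.99 and 4.79 on the WT LPS arrays, against 6.06 and 6.58 on the KO unstimulated arrays and 6.43 and 6.59 on the WT unstimulated arrays. It fell by 1.65 ± 0.21 (adjusted p = 0.00139, 3.13-fold), each state keeping within its own range. Ctsz, cathepsin Z, is a carboxypeptidase of the papain family. For Ctsz the arrays gave 8.65 and 8.48 on the KO LPS arrays and 8.78 and 8.71 on the WT LPS arrays, against 7.79 and 7.76 on the KO unstimulated arrays and 8.07 and 7.92 on the WT unstimulated arrays. It rose by 0.77 ± 0.17 (adjusted p = 0.0114, 1.71-fold), and a second Ctsz probe gave 0.85 (adjusted p = 0.011). The rise of Ctsz was averaged over 4 arrays a state and was not called in KO cells (adjusted p = 0.0567) or in WT cells (adjusted p = 0.0668) alone. Without KO LPS replicate 1 the averaged difference was 0.73 (adjusted p = 0.0557).

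The endopeptidases Ctss and Ctsd were not called, nor was Ctsb at the probe used. Ctss, cathepsin S, makes the final cuts in the invariant chain in DC. Ctss had signals of 9.26 and 9.04 on the KO LPS arrays and 9.28 and 9.07 on the WT LPS arrays, against 8.99 and 8.83 on the KO unstimulated arrays and 8.85 and 9.23 on the WT unstimulated arrays. The difference was 0.19 ± 0.19 (adjusted p = 0.47) and the states overlapped. Ctsd, the aspartic protease, had 8.55 and 8.08 on the KO LPS arrays and 8.68 and 8.31 on the WT LPS arrays, against 8.28 and 8.62 on the KO unstimulated arrays and 8.59 and 8.96 on the WT unstimulated arrays, a difference of -0.21 ± 0.22 (adjusted p = 0.486). Ctsb, a cysteine protease, had 8.40 and 7.73 on the KO LPS arrays and 8.17 and 7.76 on the WT LPS arrays, against 7.89 and 7.75 on the KO unstimulated arrays and 7.96 and 8.09 on the WT unstimulated arrays, a difference of 0.09 ± 0.22 (adjusted p = 0.778) at the probe used, while a second probe of Ctsb fell, as given with the paired probes. Lgmn, the asparaginyl endopeptidase that also cuts antigens and the invariant chain and that stands among the further hydrolases, fell by 1.57 ± 0.21 (adjusted p = 0.00162), and was chosen after its values were seen.

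The cathepsins Ctsk and Ctsl, and Ctsc in the opposite direction, split by replicate number rather than by genotype after LPS. Such a split was not particular to them. Naaa and Npc1, for example, were also higher in replicate 1 of both LPS groups, and Ids was higher in replicate 2 of both. Over all genes, the deviations of same-numbered KO LPS and WT LPS arrays from their group means correlated at 0.69. Ctsk, known as the collagen-degrading protease of osteoclasts, had 1.85 and 0.26 on the KO LPS arrays and 1.75 and 0.12 on the WT LPS arrays, against 1.82 and 2.46 on the KO unstimulated arrays and 2.41 and 2.53 on the WT unstimulated arrays. Ctsl, which cuts the invariant chain in thymic epithelium, had 6.01 and 4.08 on the KO LPS arrays and 5.65 and 4.44 on the WT LPS arrays, against 6.12 and 5.87 on the KO unstimulated arrays and 6.14 and 6.35 on the WT unstimulated arrays. For both, replicate 1 of each LPS group lay close to the unstimulated arrays and replicate 2 lay more than 1 unit below it. Ctsc, the dipeptidyl peptidase that activates granule serine proteases, had 5.57 and 6.90 on the KO LPS arrays and 6.03 and 7.03 on the WT LPS arrays, against 5.39 and 5.66 on the KO unstimulated arrays and 5.79 and 5.55 on the WT unstimulated arrays. There replicate 2 of each LPS group was the higher one. The averaged differences were -1.31 ± 0.48 for Ctsk (adjusted p = 0.0702), -1.07 ± 0.47 for Ctsl (adjusted p = 0.115) and 0.79 ± 0.36 for Ctsc (adjusted p = 0.132).

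The summed signals of other cell types' markers also differed between replicate numbers after LPS. Relative to the 75th percentile, the sum of 4 stromal markers (of 6 listed) was 12.34 and 2.187 on the KO LPS arrays and 5.999 and 2.224 on the WT LPS arrays, replicate 1 first, against 0.0946 to 0.184 on the 4 unstimulated arrays. The sum of 2 T cell markers (of 3 listed) was 1.714 and 5.316 on the KO LPS arrays and 1.092 and 3.615 on the WT LPS arrays. On the unstimulated arrays it was 0.0752 to 0.106. The osteoclast sum was 59.33 and 36.2 on the KO LPS arrays and 73.22 and 42.32 on the WT LPS arrays, and the eosinophil sum 13.17 and 6.721 and then 11.71 and 8.281, in the same order. In both genotypes after LPS, the stromal, osteoclast and eosinophil sums were thus higher in replicate 1, as Ctsk and Ctsl were. In both, the T cell, B cell, neutrophil and DC sums were higher in replicate 2, as Ctsc was. The genotypes differed for the macrophage sum, 1279 and 903.9 on the KO LPS arrays but 1086 and 1115 on the WT LPS arrays. They also differed for the mast cell and basophil sum, 0.0539 and 0.113 but 0.0824 and 0.0683, in the same order. Of the stromal markers 3 of 4 rose after LPS, with Dcn and Lum not well above background on any unstimulated array. Of the T cell markers 1 of 2 rose (Cd247, not well above background on any unstimulated array), and the other had an averaged difference of 0.13. Dcn, Lum and Cd247 thus passed the filter only through LPS arrays, which favoured a rise in them and in the sums that hold them. The part of these cells in the values of Ctsk, Ctsl and Ctsc was not tested.

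The remaining proteases were Ctsh, an aminopeptidase, Tpp1, tripeptidyl peptidase, and Scpep1, a serine carboxypeptidase. Ctsh had -0.72 ± 0.25 (adjusted p = 0.0615) and Tpp1 -0.76 ± 0.27 (adjusted p = 0.0641) at the probes used. Neither passed the test, although the 4 LPS values of each lay below the 4 unstimulated values. Scpep1 had -0.22 ± 0.33 (adjusted p = 0.631).

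Of the 6 membrane proteins and others, 2 fell and 0 rose, with a median of -0.23. Cd63 is a tetraspanin of late endosomes and lysosomes. The signals of Cd63 were 6.37 and 5.96 on the KO LPS arrays and 6.33 and 6.07 on the WT LPS arrays, against 7.20 and 6.76 on the KO unstimulated arrays and 7.19 and 7.41 on the WT unstimulated arrays. It fell by 0.96 ± 0.21 (adjusted p = 0.0117). Cd68, a heavily glycosylated lysosomal protein of macrophages and DC, had its lowest value on KO LPS replicate 2. Cd68 measured 4.89 and 3.74 on the KO LPS arrays and 4.81 and 4.51 on the WT LPS arrays, against 5.36 and 5.81 on the KO unstimulated arrays and 5.62 and 5.80 on the WT unstimulated arrays. It fell by 1.16 ± 0.29 (adjusted p = 0.0202), a call lost without WT LPS replicate 2, KO unstimulated replicate 2 or WT unstimulated replicate 2 (adjusted p = 0.0555 to 0.0719).

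The other 4 genes of this group overlapped between the states. Lamp1 and Lamp2, the main glycoproteins of the lysosomal membrane, had differences of -0.24 ± 0.22 (adjusted p = 0.429) and 0.57 ± 0.30 (adjusted p = 0.173). Mcoln1, a calcium-permeable channel of the lysosome, had -0.23 ± 0.22 (adjusted p = 0.447). Grn, progranulin, had -0.23 ± 0.25 (adjusted p = 0.512). The 3 probes named Lamp2 did not give 1 answer: the probe of a cDNA clone record 3′ of the others was at 1.02 ± 0.33 (adjusted p = 0.0491), and the probe of another RefSeq record at 0.01 ± 0.32.

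The E-box genes were spread over these outcomes. Of the 8 genes with CACGTG in the promoter window, 2 fell (Ctsa and Sgsh), 0 rose and 6 were not called, with a median averaged difference of -0.42. Of the 24 genes whose window lacked it, 12 fell, 2 rose and 10 were not called, with a median of -1.04. Of all genes tested, 19% were called lower and 18.4% higher. The genes with and without CACGTG were not tested against each other. Lamp1, with 4 E-boxes in its window, was not called.

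Since probes named Ctsb and Lamp2 disagreed, the response was compared between probes of the same transcript record. This comparison was added after the data were seen. A gene entered when 2 probes of 1 RefSeq record lay at least 300 bases apart and both were well above background on all 8 arrays. The difference tested was the LPS response of the probe nearest the 3′ end minus that of the probe farthest from it. The latter is termed the 5′ probe, although it need not lie near the 5′ end. It began at base 1888 of the record in Ctsb, 1730 in Ctsa and 2069 in Tpp1. Of 3096 such genes, 13.5% were called lower and 2.42% higher at the 3′ probe, with a median of -0.06. Of 11 lysosomal genes with such a pair, 3 were called lower (Ctsb, Ctsa and Tpp1) and 0 higher, with a median of -0.29.

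Ctsb had the widest split. Its 3′ probe (mm9, chr14:63764131-63764190, plus strand) gave 0.36 and -0.16 on the KO LPS arrays and 0.05 and -0.08 on the WT LPS arrays, against 1.20 and 2.11 on the KO unstimulated arrays and 1.33 and 2.08 on the WT unstimulated arrays. The states did not overlap, and the 3′ probe fell by 1.64 ± 0.29 (adjusted p = 0.00531 over all probes). The 5′ probe (mm9, chr14:63761906-63761965, plus strand), which carries the value of Ctsb above, had 0.09 ± 0.22. The 2 responses differed by -1.73 ± 0.24 (adjusted p = 0.00256). Whether Ctsb was called thus depends on the probe, and the mean of its probes gave -0.77 (adjusted p = 0.0363). The signal of the 3′ probe minus that of the 5′ probe was -8.12 to -5.63 over the 8 arrays.

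Ctsa fell at both probes of its pair but by unequal amounts. Its 3′ probe (mm9, chr2:164666433-164666492, plus strand) gave -2.14 and -2.23 on the KO LPS arrays and -2.47 and -2.51 on the WT LPS arrays, against -0.36 and -0.49 on the KO unstimulated arrays and -0.61 and -0.00 on the WT unstimulated arrays. The response was -1.97 ± 0.20 there and -0.91 ± 0.20 at the 5′ probe (mm9, chr2:164664388-164664447, plus strand), a difference of -1.06 ± 0.16 (adjusted p = 0.00323). The probe used for Ctsa above lies between these 2. A further Ctsa probe, of another transcript record and 5′ of all of these, fell by 1.31 ± 0.23 (adjusted p = 0.00489 over all probes). The signal of the 3′ probe of the Ctsa pair minus that of its 5′ probe was -7.85 to -6.10 over the 8 arrays. Tpp1, not called at the probe used, had a 3′ probe (mm9, chr7:112893525-112893584, minus strand) with 0.25 and -0.74 on the KO LPS arrays and -0.04 and -0.68 on the WT LPS arrays, against 1.41 and 1.25 on the KO unstimulated arrays and 1.08 and 1.34 on the WT unstimulated arrays. That probe fell by 1.57 ± 0.28 (adjusted p = 0.00518 over all probes), and it differed from the 5′ probe by -0.82 ± 0.20 (adjusted p = 0.0249). Its signal minus that of the 5′ probe was -5.11 to -3.79 over the 8 arrays. The Tpp1 difference lost its call without any 1 of 5 arrays (both KO LPS, both WT LPS and KO unstimulated replicate 1), with adjusted p up to 0.0869.

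The other 8 pairs were not called. Their differences were -0.50 ± 0.17 for Ppt1 (adjusted p = 0.0851), -0.37 for Arsb, -0.29 for Grn, -0.03 for Neu1, 0.14 for Scpep1, 0.15 for Ids, 0.23 for Ctsd and 0.24 for Psap. Both probes of Psap, Ppt1 and Arsb gave a fall. Sgsh did not enter, because its 5′ probe was well above background only on the 2 KO unstimulated arrays.

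**Figure D3:**
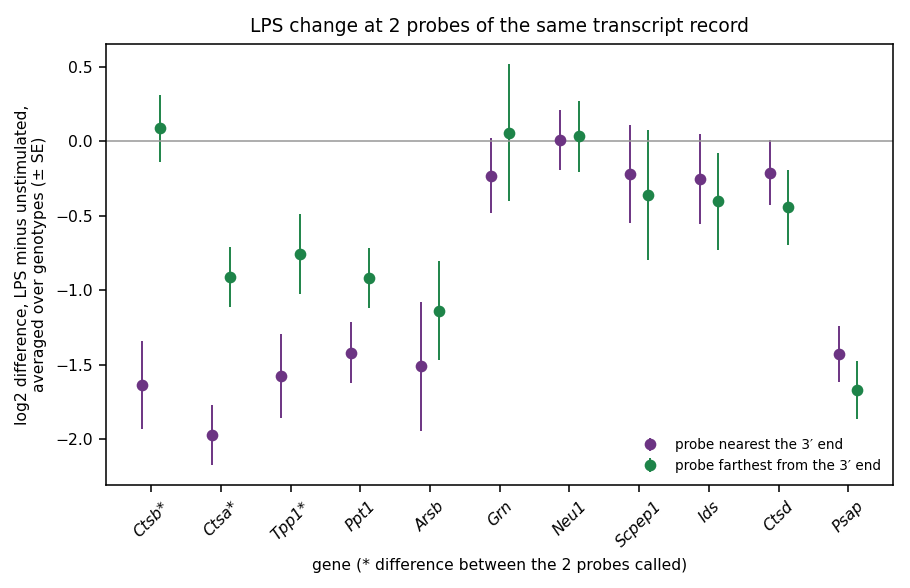
Difference in log2 signal, LPS minus unstimulated and averaged over genotypes (4 arrays a state), at the probe nearest the 3′ end and the probe farthest from it, with SE bars, for the 11 lysosomal genes with such a pair. Ctsb, Ctsa and Tpp1, marked with an asterisk, fell further at the 3′ probe, whereas both probes of Psap, Scpep1 and Neu1 gave nearby values.

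The second question was whether the lysosomal genes differed between KO and WT cells. In unstimulated cells 0 of the 37 genes were called in limma (1 at an unadjusted p under 0.05), where 0.24% of all genes were called. After LPS 0 genes were called (0 at an unadjusted p under 0.05), against 0.026% of all genes. Averaged over states 0 were called (1 unadjusted), against 0.143%, and for the LPS response in KO cells minus that in WT cells 0 were called (0 unadjusted), against 0.0455%. These comparisons share their arrays with the LPS comparisons and with each other.

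In unstimulated cells 35 of the 37 differences, KO minus WT, were below 0, with a median of -0.21 and a range of -0.71 to 0.11. Of all 15401 genes, 8700 were below 0 there, with a median of -0.04. After LPS 29 of the 37 were below 0, with a median of -0.11 and a range of -0.95 to 0.42. Of all genes, 7865 were below 0 after LPS, with a median of -0.01. Genotype was partly confounded with slide in both states. The KO arrays lay wholly below the WT arrays in 7 genes and above in 0 in unstimulated cells, against 13.1% and 7.89% of all genes, and below in 8 and above in 1 after LPS, against 9.87% and 11.4%. The median 95% interval of a single gene's difference reached 0.854 to either side, so a difference of the size of these medians was not detectable for a single gene. The medians and the counts below 0 were not themselves tested.

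Neu1 and Scpep1 had the lowest KO values relative to WT. In unstimulated cells Neu1 had 4.92 and 5.15 on the KO arrays, against 5.56 and 5.92 on the WT arrays, without overlap at the probe used. The difference was -0.71 ± 0.28 (95% interval -1.38 to -0.04, unadjusted p = 0.0407, adjusted p = 1). After LPS Neu1 had 5.27 and 5.20 on the KO arrays, against 5.33 and 5.78 on the WT arrays. Scpep1 after LPS had 4.47 and 4.19 on the KO arrays, against 5.18 and 5.37 on the WT arrays, a difference of -0.95 ± 0.47 (95% interval -2.05 to 0.16). In unstimulated cells its KO values of 4.19 and 5.35 overlapped the WT values of 4.82 and 5.73.

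The genes with the widest separation between states were close in the 2 genotypes. Naaa averaged 4.43 and 4.34 on the KO and WT LPS arrays and 7.38 and 7.36 on the KO and WT unstimulated arrays. Psap averaged 6.81 and 6.89 on the KO and WT LPS arrays, and 8.27 on the unstimulated arrays of both genotypes. At the probes used, the LPS response in KO cells minus that in WT cells ranged from -0.44 to 0.62 over the 37 genes. The largest value was at Lipa, and the 95% intervals reached 0.791 to 2.27 to either side.

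**Figure D4:**
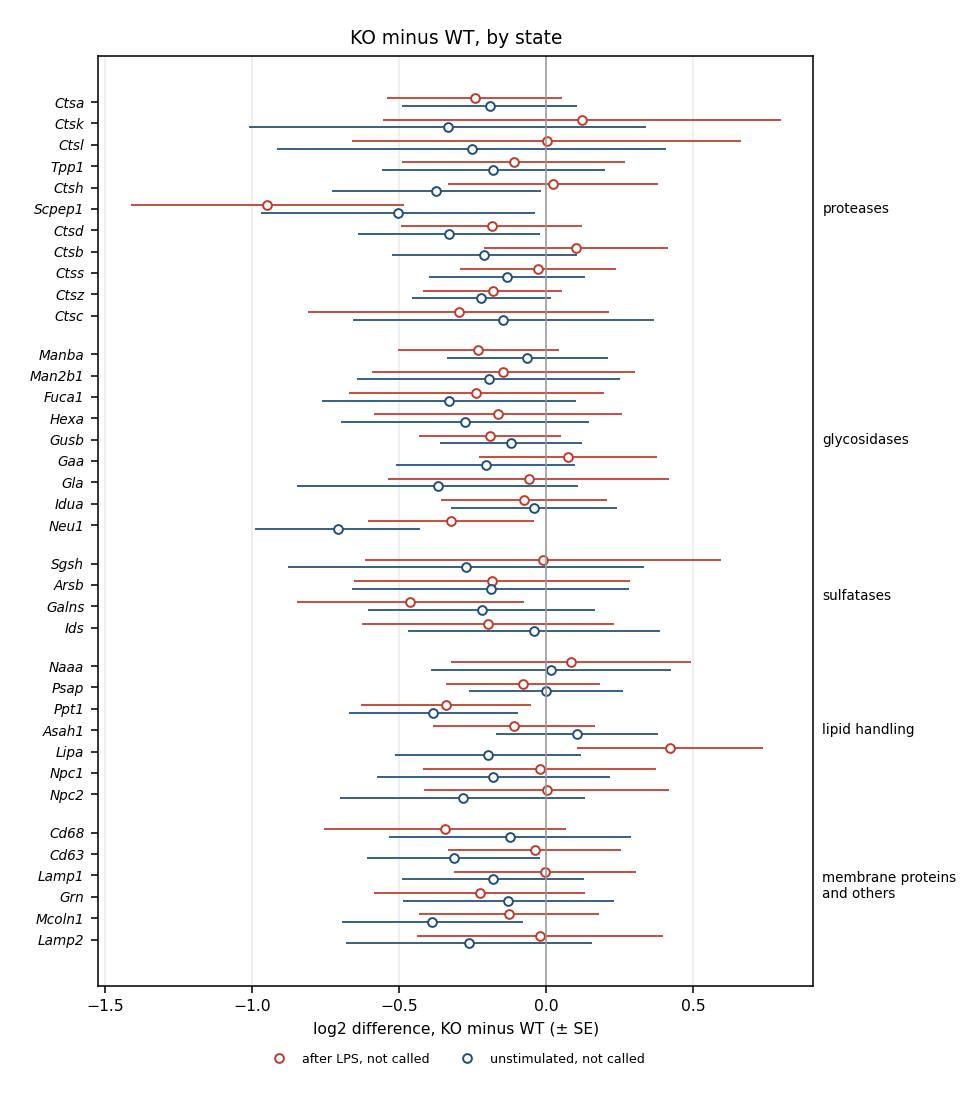
Difference in log2 signal, KO minus WT, of the 37 genes after LPS (red) and in unstimulated cells (blue), with SE bars and 2 arrays a group; open circles mark genes not called. Every circle is open, and most lie slightly left of 0, with Scpep1 after LPS at -0.95 and Neu1 in unstimulated cells at -0.71.

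Further genes of the pathway, from 7 lists, were read in the same comparison of LPS with the unstimulated state, averaged over genotypes and against the same 19% and 18.4% of all genes. Of 31 other lysosomal hydrolases and activators, 9 fell and 3 rose, with a median of -0.52. Dnase2a, the acid nuclease that digests engulfed DNA, had -2.89 and -2.85 on the KO LPS arrays and -2.98 and -2.82 on the WT LPS arrays, against -0.11 and 0.81 on the KO unstimulated and 0.27 and 0.56 on the WT unstimulated arrays. It fell by 3.27 ± 0.25. Pla2g15, a lysosomal phospholipase, fell by 2.07 ± 0.31, and Gm2a, the activator protein that works with Hexa on GM2, by 1.91 ± 0.25. The 3 that rose were Rnaset2b, an acid ribonuclease, at 2.29 ± 0.27, Acp2, lysosomal acid phosphatase, at 2.06 ± 0.29, and Ctso, cathepsin O, at 0.56 ± 0.18.

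Of 24 other lysosomal membrane proteins, 9 fell and 4 rose, with a median of -0.37. The channels Mcoln3 and Tpcn1 fell by 4.57 ± 0.56 and 3.19 ± 0.33, Abca2, a lipid transporter, by 2.48 ± 0.28, and Ctns, the cystine exporter, by 1.89 ± 0.23, with Mcoln3 well above background on only 1 of 2 WT LPS arrays. Slc11a1, the phagosomal divalent metal transporter, had 5.76 and 5.65 on the KO LPS arrays and 5.41 and 5.74 on the WT LPS arrays, against 3.97 and 3.54 on the KO unstimulated and 3.86 and 3.90 on the WT unstimulated arrays. It rose by 1.82 ± 0.19. Slc15a3, a histidine and peptide transporter, rose by 2.42 ± 0.40 with 1 WT LPS array missing, Clcn7, the lysosomal chloride-proton exchanger, by 1.44 ± 0.19, and Mcoln2, a relative of Mcoln1, by 1.09 ± 0.23.

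Of 17 V-ATPase subunits and accessory proteins 3 fell and 1 rose, with a median of -0.17. Atp6v0d2, a subunit known from osteoclasts and macrophages, fell by 3.89 ± 0.67, Atp6v0a1 by 0.94 ± 0.26 and Atp6ap1 by 0.62 ± 0.18, whereas Atp6v1e1 rose by 0.94 ± 0.19. Of 24 genes for sorting to the lysosome 2 fell and 1 rose, with a median of -0.07. Sort1, sortilin, a receptor that carries hydrolases to the lysosome, fell by 2.48 ± 0.24 and Vps18 by 0.62 ± 0.17, and M6pr, a mannose 6-phosphate receptor, rose by 0.75 ± 0.24 (adjusted p = 0.0479).

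Of 14 MiT factors and nutrient-sensing genes 5 fell and 1 rose, with a median of -0.40. Tfeb, which encodes a factor that binds E-boxes of this sequence, had -0.91 and -1.28 on the KO LPS arrays and -0.78 and -0.89 on the WT LPS arrays, against -0.12 and 0.61 on the KO unstimulated and -0.09 and 0.33 on the WT unstimulated arrays. It fell by 1.15 ± 0.24 (adjusted p = 0.00984), with -1.34 in KO cells and -0.96, not called, in WT cells. Lamtor2, part of the lysosomal scaffold of mTORC1, fell by 1.18 ± 0.19, its regulator Flcn by 1.13 ± 0.30 and the Flcn partner Fnip2 by 0.97 ± 0.18, and Mtor rose by 0.79 ± 0.24. Of 13 autophagy genes 3 fell (Atg7, Wipi1 and Map1lc3b, by 1.66 ± 0.21, 1.01 ± 0.28 and 0.81 ± 0.26) and 1 rose (Sqstm1, the cargo receptor p62, by 1.33 ± 0.33).

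The list of cathepsin inhibitors, which held cystatins, related proteins and serpins, was the list with a median above 0. Of 12, 4 rose and 1 fell, with a median of 0.80. Cst7, cystatin F, which is targeted to endolysosomes, had 2.66 and 2.26 on the KO LPS arrays and 1.93 and 3.24 on the WT LPS arrays, against -3.54 and -3.45 on the KO unstimulated and -2.54 and -2.41 on the WT unstimulated arrays. It rose by 5.51 ± 0.31 (adjusted p = 5.88e-05). The serpins Serpinb9, an inhibitor of granzyme B, and Serpina3g rose by 5.67 ± 0.45 and 3.38 ± 0.68, and Cst3, cystatin C, by 0.68 ± 0.21 (adjusted p = 0.0404). Serpinb9 was counted in this list although granzyme B is not a cathepsin. Cst6, cystatin M/E, fell by 2.14 ± 0.33.

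**Figure D5:**
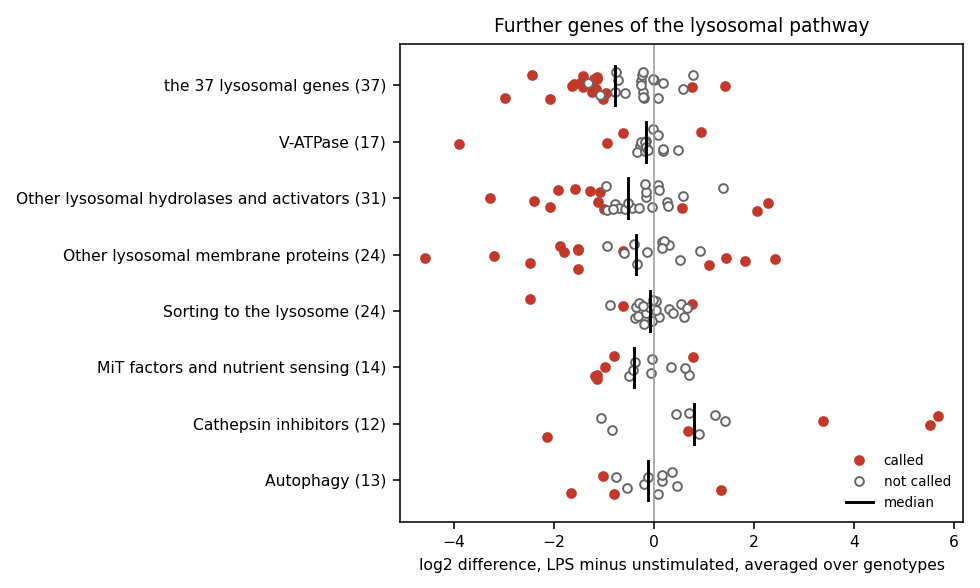
Difference in log2 signal, LPS minus unstimulated and averaged over genotypes, of the 37 lysosomal genes and of the measured genes of 7 further lists, 1 circle a gene, filled where the adjusted p was under 0.05; bars mark medians. The median of the 37 genes is -0.78, and that of the cathepsin inhibitor list, which counts Serpinb9, lies right of 0 at 0.80.

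Markers of the sorted cells and of other cells moved with the LPS comparison. Of 13 DC markers 4 rose (Ccr7, Cd80, Cd83 and Cd86, the last being the gate of the sort) and 0 fell, with a median of 0.18. Itgax, H2-Ab1 and Cd74, also on this list, were well above background on all 8 arrays, which does not by itself identify DC. The summed level of the 13 was 1109 to 1572 on the LPS arrays, against 953.3 to 1271 on the unstimulated arrays. Of 13 macrophage markers 6 fell (Cd163, C1qa, C1qb, C1qc and Mrc1 among them) and 3 rose (Emr1, Fcgr1 and Cd14), with a median difference of -1.75 and 9 of the 13 below 0. Their summed level, which is carried by the probes of highest signal, was 903.9 to 1279 on the LPS arrays, against 609.6 to 939.3 on the unstimulated arrays. Mrc1 fell by 5.70 ± 0.36. Cd163 was not well above background on any LPS array, so it passed the filter only through unstimulated arrays.

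Among other cells, all 3 eosinophil markers measured, of 4 on the arrays, fell. Their summed levels were 6.721 to 13.17 on the LPS arrays, against 25.8 to 32.19 on the unstimulated arrays. Of 4 mast cell and basophil markers measured, of 5 on the arrays, 3 fell. Their sums were 0.0539 to 0.113 on the LPS arrays, against 0.374 to 2.541 on the unstimulated arrays. The neutrophil sum was 8.369 to 10.07, against 4.577 to 10.02, the osteoclast sum 36.2 to 73.22, against 31.83 to 42, and that of the single B cell marker measured 0.0814 to 0.216, against 0.0322 to 0.0621, LPS arrays against unstimulated arrays each time. Of 5 osteoclast markers measured, of 6 on the arrays, Calcr rose and Atp6v0d2 fell. Of 5 neutrophil markers measured, of 7 on the arrays, Camp rose and Ltf fell. Calcr and Camp were not well above background on any unstimulated array, and Prg2, a defining eosinophil marker, on any LPS array. Each of these thus passed the filter only through the state in which it was higher. The part of these cells in the changes of the lysosomal genes was not tested.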

How the data were processed

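Per the file headers, scans were read with Agilent Feature Extraction 10.5.1.1 and probes were placed on the mm9 build. The deposited scanner files hold intensity values (a background-subtracted, detrended processed signal, the mean signal and the local background) and, as an other unit, 0 or 1 flags for spots well above background, saturated or outlying. The log2 values of the deposited series table differed from the log2 processed signal by 1 constant an array and served as an alternative. Outlying spots were left out, spots of a probe were averaged, and each array's 75th percentile was subtracted. Probes had to be well above background (in as many of their kept spots as not, or more) on both arrays of at least 1 group, and the probe with the highest mean signal stood for its gene. This left 23739 probes and 15401 genes, 48 of them with a missing value.

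Means of the 4 groups were fitted over all 8 arrays with limma 3.58.1 in R 4.3.3 (residual degrees of freedom 4, prior 2.88), and two-sided p-values were adjusted over all genes tested by the Benjamini-Hochberg method, with calls under 0.05. Errors are standard errors of that fit. The fit was tested on simulated data. The 37 genes, the further lists and the markers were chosen with earlier results of these data known. All 37 genes are named, with values by array for those called and those of highest signal, and up to 4 called genes per direction of each further list, except for some genes that are not reported here. The rule for flags of a probe with several spots and the comparison of probe pairs were chosen after seeing the data. Promoter and microRNA sequences are from RefSeq (GRCm38.p6). Of the 37 genes, Ctsb, Ctsh, Galns, Asah1 and Npc1 had no promoter window there. Coordinates of probes are those of the files.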

Additional observations from a re-analysis of the deposited data

How the results depend on the processing

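Over the alternatives run (12 settings of the processing and 8 fits without 1 array, with those added after seeing the data), 0 of the 37 genes were called in any comparison of KO with WT or in the difference between the LPS responses. For LPS against unstimulated, genes called lower are given for KO cells, for WT cells and averaged, where the reported counts were 8, 11 and 16 lower and 1, 0 and 2 higher. Normexp background correction gave 2, 2 and 11 lower and 0, 0 and 0 higher. On KO LPS replicate 2, 25 spots, 0 of them of these genes, had a local background over 5 times the array's median, and the 10th percentile of corrected signals there was 1840, against 58.4 to 91.6 on the other arrays. With such backgrounds replaced, the counts were 11, 11 and 18 lower and 2, 1 and 2 higher. Quantile normalization gave 0 higher in KO cells, no filter on dim probes 0 higher in KO cells and 7 lower in WT cells, and a variance trend 2 and 1 higher in KO and WT cells. The slide as a block gave 7, 6 and 10 lower and 0 higher in KO cells. Within slide 2, 0 genes were called higher and 0 lower in KO cells, and within slide 1, 3 were lower in WT cells. The replicate block gave 9, 14 and 18 lower and 2, 1 and 2 higher. Deviations of same-numbered arrays from their group means correlated at 0.13 to 0.69 in 5 of the 6 pairs of groups and at 0.01 between KO LPS and WT unstimulated, and the second principal component separated the 2 numbers in all 4 groups. The labels give no pairing, so this is a hint from the data and not the design. Without 1 array, genes called lower ranged from 2 to 10 in KO cells, 2 to 9 in WT cells and 12 to 18 averaged, and genes called higher from 0 to 1 in KO cells. Scaling by the median gave 12, 12 and 21 lower, moved the median of all genes to -0.14, -0.09 and -0.11, and took the share of higher among all averaged calls to 40.6%, against 49.2%. The cause of these changes was not tested.

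The difference of Ctsb averaged over genotypes, 0.09 and not called at the probe used, was -0.77 when its probes were averaged. Averaged over genotypes, Naaa stayed called in every setting that gave this comparison, between -3.26 and -2.75. So did Manba, between -2.57 and -2.32, and Psap, between -1.84 and -1.31. The fits within a slide gave no averaged comparison. Other rules for the flags of a probe with several spots gave 11 or 12 lower in WT cells. With dim probes kept, 4 of 12 genes with a probe pair were called lower, Sgsh being added. With normexp, Ctsa, Ctsz, Arsb, Npc1, Npc2, Cd63 and Cd68 lost the call averaged over genotypes (adjusted p = 0.0581 to 0.582). Precision is limited by 2 arrays a group.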
